A study of Homo sapiens with 6 samples.

Results

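The genes described here encode the aminoacyl-tRNA synthetases and the scaffold proteins that hold some of them together, measured in HT-1080 cells with and without an IRAK4 inhibitor. They were chosen by symbol from biochemical knowledge, not by any measured value: 20 genes for cytosolic enzymes, 16 for mitochondrial enzymes and 3 for scaffold proteins, 39 of the 20683 genes listed in each count file. HT-1080 is an established human fibrosarcoma line. Cells on dishes were exposed for 24 h to the IRAK4 inhibitor SLV-8472-01, whose labelled concentration of 5 mM could not be checked here, or to 0.1% DMSO in the control dishes. Each group had 3 libraries, which the series calls biological replicates, and p-values measure the spread between them. No genetic change separates the groups, and all the data come from a single line. RNA was read through an amplicon panel, in which each gene is represented by a short PCR product.

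An aminoacyl-tRNA synthetase attaches an amino acid to its tRNA, the step that fixes the genetic code. Most amino acids have a cytosolic enzyme and a separate mitochondrial one, both encoded in the nucleus. Exceptions are glycine and lysine, whose genes GARS and KARS serve both compartments, and glutamine, whose mitochondrial tRNA is charged with glutamate and then amidated. The cytosolic enzymes for glutamate and proline are joined in EPRS. In animals, 8 of the cytosolic genes here (DARS, EPRS, IARS, KARS, LARS, MARS, QARS and RARS) supply the multisynthetase complex, which is held together by AIMP1, AIMP2 and EEF1E1, also known as AIMP3. The other 12 cytosolic genes are called free below. When amino acids run short, uncharged tRNA activates the kinase GCN2 (gene EIF2AK4), translation of the transcription factor ATF4 increases, and several cytosolic synthetase genes are among its known targets. WARS, for tryptophan, is also known as an interferon-inducible gene.

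The libraries held 9162281 to 13184553 counts and 13452 to 13913 detected genes. Of the mesenchymal genes checked against the labelled fibrosarcoma, VIM lay between 5315 and 6458 CPM, FN1, CDH2, ZEB1, SPARC and CD44 were detected, THY1 had a single count in 1 library, and the blood cell genes PTPRC and CD3E had 0 counts in all 6 libraries. Of the epithelial genes, CDH1 had 0 counts throughout and EPCAM, KRT19 and ESRP1 at most 5 in a library. Of the endothelial genes, CDH5 had at most 1 count and PECAM1 had 9 to 26. Levels are CPM, that is counts scaled to a common library size, here after TMM scaling, and log2 fold changes are inhibitor over DMSO. In RNA from a whole dish, fewer expressing cells and less RNA per cell cannot be told apart. Among the 11216 genes tested, edgeR's quasi-likelihood test with Benjamini-Hochberg adjustment called 219 higher (1.95%) and 215 lower (1.92%) in inhibitor cells. With library totals in place of TMM these counts were 336 and 163.

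The DMSO libraries differed from each other more than the inhibitor libraries did, also for the synthetase genes. The median SD of log2 CPM over the 38 tested members was 0.0772 among inhibitor libraries and 0.206 among DMSO libraries, and it was larger in DMSO for 33 of them. Over 9034 genes of higher count these medians were 0.1097 in inhibitor and 0.198 in DMSO. DMSO 3 was the highest or lowest DMSO library for 28 of the 38 members, above the other two for 15 genes and below them for 13. Any library of 3 is expected at such an edge for most genes, so this count alone does not set DMSO 3 apart. Over the 9034 genes, however, DMSO 3 was further from the other DMSO libraries than they were from each other. The median absolute log2 difference was 0.155 between DMSO 1 and 2, 0.317 between DMSO 1 and 3 and 0.248 between DMSO 2 and 3. Between inhibitor libraries it was 0.122 to 0.130. The deviation of DMSO 3 from the DMSO mean ran against transcript GC content, with a Spearman rho of -0.517 over the 38 members and -0.488 over 9034 genes. For DMSO 1 these values were 0.589 and 0.531. Over the members, inhibitor 2 (-0.498) and inhibitor 3 (0.470) deviated from the inhibitor mean with a like rho, whereas over the 9034 genes they had -0.116 and 0.152. The points of such a correlation share a library, so it is a description, and the part of DMSO 3 in each result was not tested. Members whose fold change moved by over 1.5 times without DMSO 3 are also given without it below.

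No synthetase or scaffold gene passed the adjusted threshold of 0.05 in edgeR, 0 of 38 tested, where 3.87% of all tested genes did. DESeq2 called 2 members, AARS and GARS, both lower in inhibitor cells, against 5.30% of all genes, and limma-voom called 0, against 3.96%. edgeR gave 1 call, AARS, with the GC trend of each library removed (6.28% of all genes) or without DMSO 2 (1.63%), and 3, AARS, CARS and GARS, with no filter on low counts (5.32%). At an unadjusted p under 0.05, edgeR gave 9 of 38 members (23.7%), close to the 19.5% of all genes: RARS and RARS2 were higher in inhibitor cells, where 10.3% of all genes were, and AARS, CARS, GARS, MARS, NARS, TARS and TARS2 were lower, where 9.23% were. The inhibitor and DMSO ranges did not overlap in 10 members (26.3%), again near the 25.5% of all genes. The 95% interval of the fold change lay within 2-fold of equality for 37 of the 38 members and within 1.5-fold for 27. CARS was the exception at 2-fold. These intervals are not adjusted for the number of genes.

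Without DMSO 3, edgeR called 8 of 38 members (21.1%), when 21.9% of all genes were called. AARS, CARS, FARSA, GARS, NARS, VARS and TARS2 were then lower in inhibitor cells, and RARS was higher. These 8 genes were also the ones called by limma-voom when libraries were weighted by quality, a fit that called 23.2% of all genes. The members' share of calls was close to that of all genes in both of these fits. Without DMSO 1, edgeR called 0 members, when 3.76% of all genes were called.

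**Figure D1:**
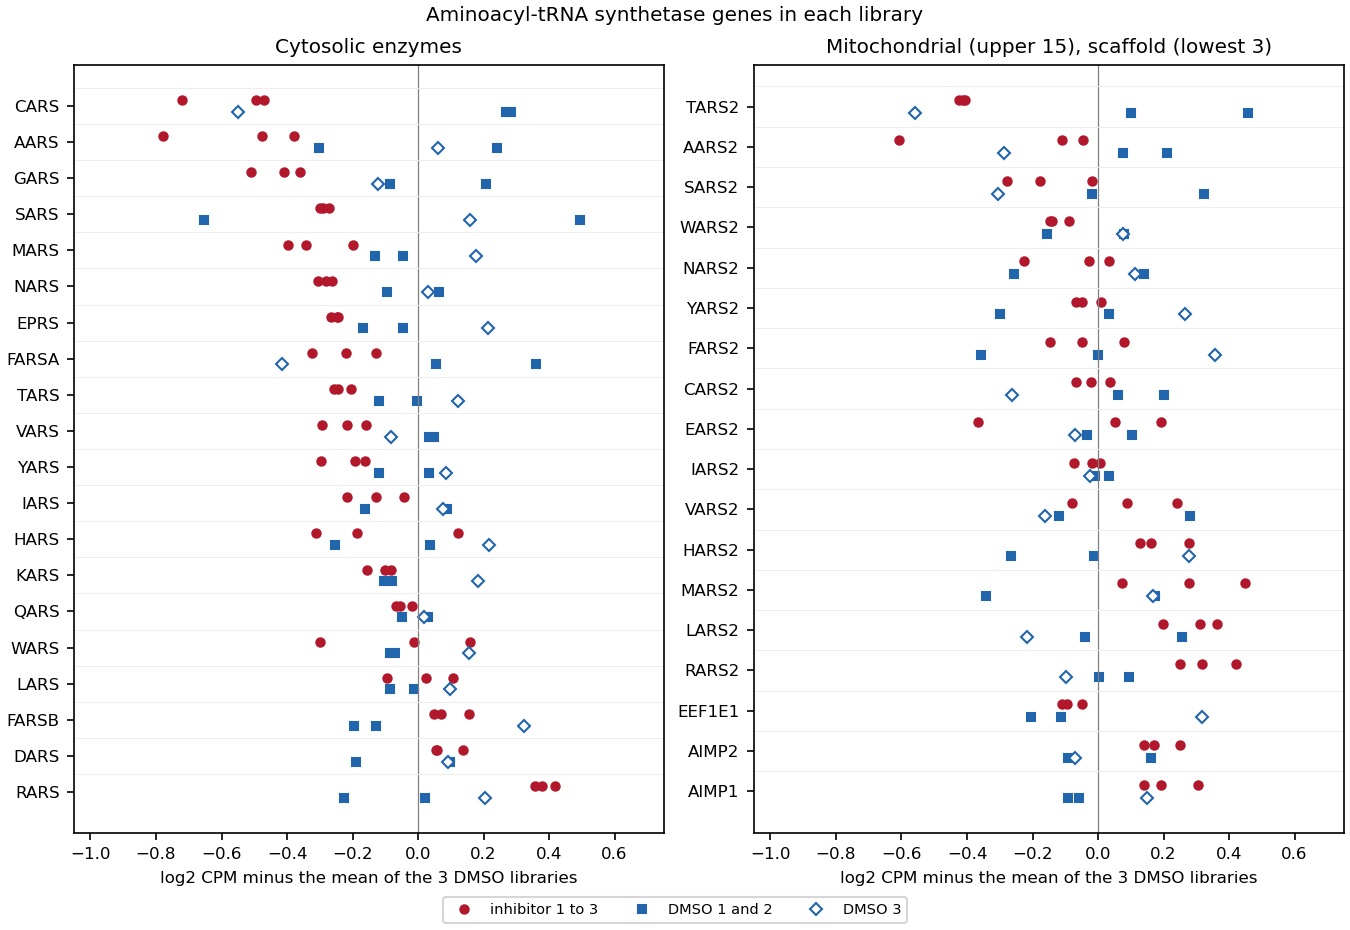
Level of each tested synthetase and scaffold gene in each library, as log2 CPM minus the mean of the 3 DMSO libraries. Filled circles are the inhibitor libraries, filled squares DMSO 1 and 2, and open diamonds DMSO 3; genes run from the lowest to the highest fold change within a class. The inhibitor points lie left of all DMSO points for 8 cytosolic genes. DMSO 3 is often at an edge of the DMSO points, as any of 3 libraries would be for most genes.

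The cytosolic enzymes as a class lay slightly low in inhibitor cells. Their median log2 fold change was -0.22 over 20 genes, and 16 of the 20 (80.0%) were below 0, where 50.6% of all genes were. The median of all tested genes was -0.0044. Groups did not overlap for 9 of the 20 genes: 8 were lower in every inhibitor library (AARS, EPRS, GARS, MARS, NARS, TARS, VARS and YARS), where 11.8% of all genes were, and RARS was higher in every one, where 13.7% were. Unadjusted p was under 0.05 for 6 lower genes and 1 higher gene. Without DMSO 3, 6 were called lower (30.0% of the 20, against 11.1% of all genes) and 1 higher, with a class median of -0.18. No test was made of the class as a whole.

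AARS, the alanine enzyme, had 315, 255 and 337 CPM in the inhibitor libraries, against 518, 355 and 457 CPM in the DMSO libraries. All 3 inhibitor libraries lay below the lowest DMSO library, which was DMSO 2. The group means were 302 ± 42.2 CPM in inhibitor cells and 443 ± 82.3 CPM in DMSO cells (SD, n = 3 each). The fold was 0.682 (95% interval 0.546 to 0.853), with an adjusted p of 0.0576 in edgeR and 0.0181 in DESeq2. Without DMSO 3 its log2 fold change was -0.54 (edgeR adjusted p = 0.00143), and without DMSO 2 it was -0.69 (adjusted p = 0.0428). No other setting that left out a library gave a call for AARS.

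GARS, the glycine enzyme of both cytosol and mitochondria, had 182, 176 and 164 CPM in the inhibitor libraries, against 270.1, 220.3 and 215 CPM in the DMSO libraries. Its groups did not overlap, and DMSO 2 and DMSO 3 were nearly equal. Its fold was 0.741 (95% interval 0.615 to 0.892), or -0.43 on a log2 scale with an SE of 0.125 (edgeR adjusted p = 0.0709, DESeq2 adjusted p = 0.0312). The GARS log2 fold change was -0.51 without DMSO 3 (edgeR adjusted p = 0.000556) and -0.33 without DMSO 1 (adjusted p = 0.157). KARS, the lysine enzyme and the other gene here that serves both compartments, had 160.3, 167 and 169 CPM in the inhibitor libraries, against 169, 166 and 203 CPM in the DMSO libraries. For KARS the inhibitor range lay within that of the DMSO libraries apart from its lowest value, and DMSO 3 was the highest. The KARS log2 fold change was -0.12 (95% interval -0.38 to 0.14, edgeR adjusted p = 0.641), and -0.037 without DMSO 3. The difference between GARS and KARS was not tested.

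CARS, the cysteine enzyme, had 11.4, 9.72 and 11.5 CPM in the inhibitor libraries, against 19.5, 19.3 and 10.9 CPM in the DMSO libraries. DMSO 1 and DMSO 2 stood well above all inhibitor libraries, while DMSO 3 lay among them. With all 6 libraries the log2 fold change of CARS came to -0.62, with an SE of 0.205 (edgeR adjusted p = 0.111). It was -0.85 without DMSO 3 (edgeR adjusted p = 9.7e-05) and -0.50 without DMSO 1 (adjusted p = 0.206). FARSA, which encodes the catalytic subunit of the phenylalanine enzyme, had 236, 219.8 and 251 CPM in the inhibitor libraries, against 353, 286 and 206 CPM in the DMSO libraries. DMSO 1 and DMSO 2 were again above all inhibitor libraries, and DMSO 3 was below them. Its log2 fold change was -0.26 (edgeR adjusted p = 0.412) with all libraries, -0.45 (adjusted p = 0.00189) without DMSO 3 and -0.071 (adjusted p = 0.843) without DMSO 1. FARSB, for the other subunit of that enzyme, had 64.1, 68.1 and 63.1 CPM in the inhibitor libraries, against 53.3, 55.9 and 76.4 CPM in the DMSO libraries, with DMSO 3 the highest library. Its log2 fold change was 0.08 (edgeR adjusted p = 0.824), and 0.24 without DMSO 3 (adjusted p = 0.111).

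RARS, the arginine enzyme, was on the other side, with 159.6, 167 and 162 CPM in the inhibitor libraries, against 106, 126.4 and 144 CPM in the DMSO libraries. Every inhibitor library was above every DMSO library, and the inhibitor values were close together. The fold was 1.30 (95% interval 1.07 to 1.57) with an edgeR adjusted p of 0.123. Its log2 fold change was 0.47 without DMSO 3 (edgeR adjusted p = 0.00148) and 0.26 without DMSO 1 (adjusted p = 0.284). The asparagine enzyme NARS had 211, 207 and 213 CPM in the inhibitor libraries, against 240.1, 268 and 262 CPM in the DMSO libraries. Its groups did not overlap, at a log2 fold change of -0.28 (edgeR adjusted p = 0.170). This was -0.29 without DMSO 3 (edgeR adjusted p = 0.0332) and -0.34 without DMSO 1 (adjusted p = 0.135).

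MARS, the methionine enzyme that also charges the initiator tRNA, had 639.6, 665 and 734 CPM in the inhibitor libraries, against 816, 769.6 and 952 CPM in the DMSO libraries. The threonine enzyme TARS had 473, 461 and 457 CPM in the inhibitor libraries, against 545, 502 and 594 CPM in the DMSO libraries. In both genes the groups were apart and DMSO 3 was the highest library. The log2 fold change was -0.32 for MARS (edgeR adjusted p = 0.152) and -0.24 for TARS (edgeR adjusted p = 0.255). In the GENCODE v29 annotation an exon of MARS overlaps DDIT3 on the opposite strand. The sources used here do not give whether counting used strand, and the part of reads shared by both genes was not tested. Exons of 23 of the 39 members overlap another annotated gene.

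EPRS, the glutamate and proline enzyme, had 249, 248 and 245 CPM in the inhibitor libraries, against 286, 262 and 342 CPM in the DMSO libraries. VARS, for valine, had 232, 219.7 and 241 CPM in the inhibitor libraries, against 276, 279 and 254 CPM in the DMSO libraries, and YARS, for tyrosine, had 159.8, 145 and 156 CPM in the inhibitor libraries, against 183, 165 and 189.6 CPM in the DMSO libraries. All 3 genes had separate groups, with log2 fold changes of -0.26, -0.22 and -0.22 and edgeR adjusted p of 0.261, 0.287 and 0.321. VARS was called without DMSO 3 (log2 fold change -0.28, adjusted p = 0.0365), and EPRS and YARS were not, with EPRS then at -0.16. QARS, for glutamine, had 102, 101 and 105 CPM in the inhibitor libraries, against 108, 103 and 107 CPM in the DMSO libraries, with a log2 fold change of -0.05 and a 95% interval of -0.29 to 0.20. The remaining cytosolic enzymes overlapped between groups: SARS for serine (log2 fold change -0.36), IARS for isoleucine (-0.13), HARS for histidine (-0.13), LARS for leucine (0.01) and DARS for aspartate (0.08). SARS had 74.8, 75.2 and 76.2 CPM in the inhibitor libraries, against 129.8, 58.5 and 103 CPM in the DMSO libraries. Its inhibitor values were close together, and its DMSO values lay on both sides of them. The SARS log2 fold change was -0.096 without DMSO 1 and -0.63 without DMSO 2. Without DMSO 3, HARS had -0.029 and LARS 0.048, and neither was called.

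WARS, the tryptophan enzyme, had 99.7, 88.6 and 72.7 CPM in the inhibitor libraries, against 84.2, 85.1 and 99.6 CPM in the DMSO libraries. The groups overlapped, and inhibitor 3 was the lowest library. Its fold was 0.972 (95% interval 0.789 to 1.197), with an edgeR adjusted p of 0.910, and its log2 fold change was 0.027 without DMSO 3 and -0.04 with it. Its mitochondrial counterpart WARS2 had 14.6, 15.2 and 14.6 CPM in the inhibitor libraries, against 14.5, 17.0 and 17.0 CPM in the DMSO libraries, at a log2 fold change of -0.13 (edgeR adjusted p = 0.683). Set beside WARS were 12 tested interferon-stimulated genes and regulators, a list chosen with their changes in these data already known. Of these, edgeR called 5 higher and 0 lower, where 1.95% of all genes were higher and 1.92% lower. The list was led by IFI6 at 3.62, IFIT1 at 2.57 and ISG15 at 2.14, which encode antiviral effectors. IFI6 had 472, 386 and 119 CPM in the inhibitor libraries, against 28.2, 23.3 and 27.9 CPM in the DMSO libraries. In all 3 of these genes inhibitor 3 was the lowest inhibitor library and still above every DMSO library, at 7.07 CPM for IFIT1 and 26.7 CPM for ISG15. IRF1 and GBP1, which interferon gamma is known to induce, had log2 fold changes of -0.0011 and 0.0014. Without DMSO 3, 7 of the 12 were called higher and 1 lower, when 10.8% of all genes were called higher and 11.1% lower.

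**Figure D2:**
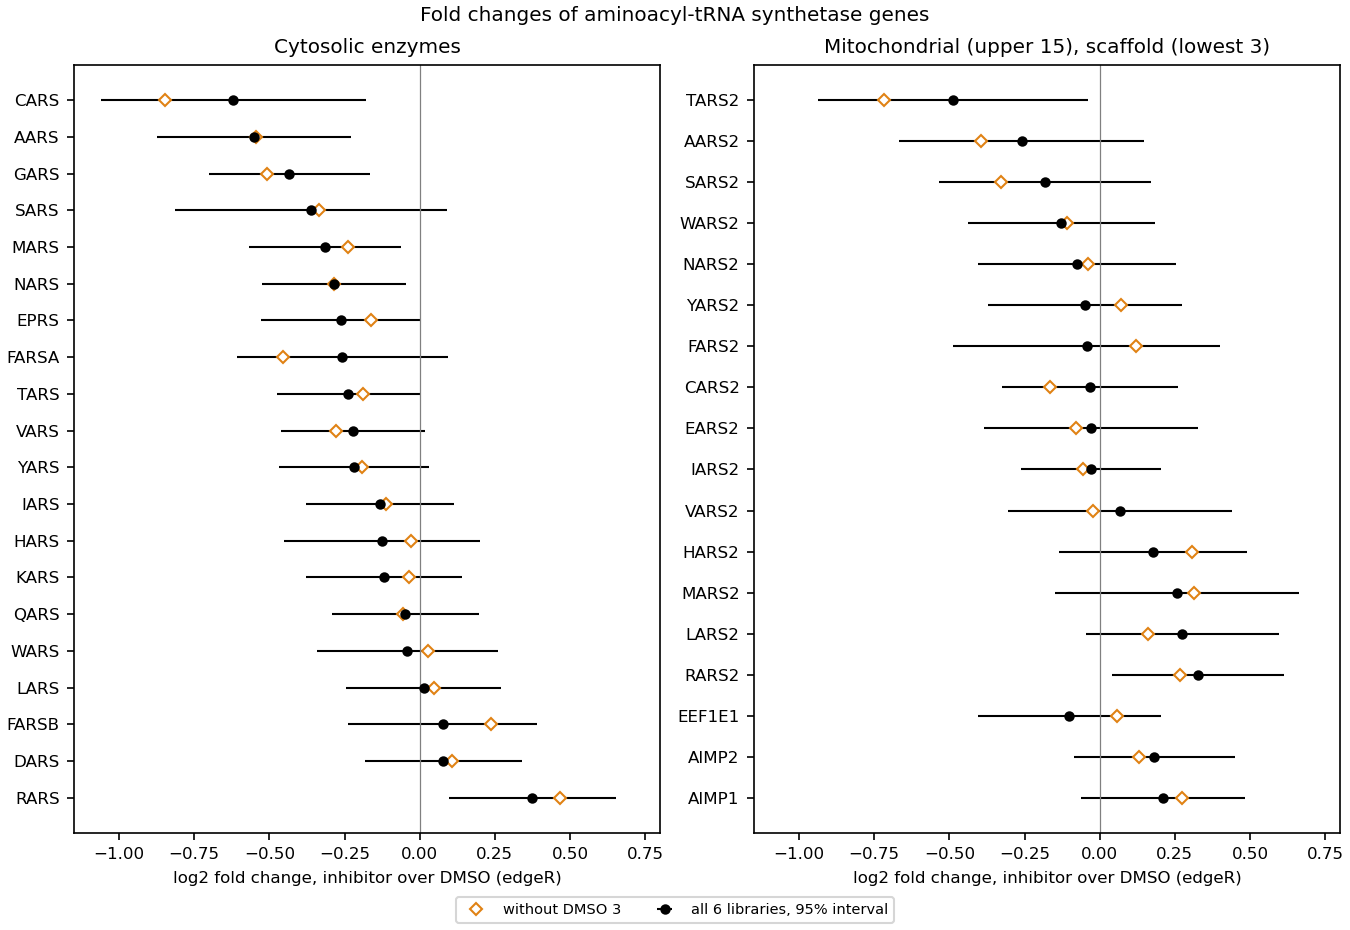
Log2 fold change of each tested gene, inhibitor over DMSO, from edgeR. Filled circles with lines are the estimates from all 6 libraries with their 95% intervals, and open diamonds are the estimates without DMSO 3. CARS, AARS and GARS lie lowest among the cytosolic enzymes and RARS highest; leaving out DMSO 3 puts CARS, FARSA and TARS2 further left.

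Within the cytosol, the 12 free enzymes had a median log2 fold change of -0.25, with 11 below 0, where 50.6% of all genes were. The 8 enzymes of the multisynthetase complex had a median of -0.0833, with 5 below 0 and a range from -0.32 for MARS to 0.38 for RARS. Their median transcript GC content was 45.7%, against 52.6% for the free enzymes, and the difference between these sets was not tested. Of the scaffold genes, AIMP1, whose product binds RARS, had 51.2, 55.4 and 49.4 CPM in the inhibitor libraries, against 42.1, 43.1 and 49.8 CPM in the DMSO libraries. AIMP2, which bridges several enzymes of the complex, had 66.5, 68.0 and 71.8 CPM in the inhibitor libraries, against 67.5, 56.6 and 57.5 CPM in the DMSO libraries. EEF1E1 had 124, 125 and 129 CPM in the inhibitor libraries, against 116, 124 and 166 CPM in the DMSO libraries. The groups overlapped in all 3 scaffold genes, with log2 fold changes of 0.21, 0.18 and -0.10 and edgeR adjusted p of 0.382, 0.453 and 0.754. EEF1E1 had its highest value in DMSO 3, and its log2 fold change without that library was 0.06.

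The mitochondrial enzymes had a median log2 fold change of -0.0325 over 15 tested genes, near that of all genes, with 10 of them below 0. With library totals in place of TMM this median was 0.0273. At an unadjusted p under 0.05 stood 1 gene in each direction, where 10.3% of all genes were higher and 9.23% lower. RARS2, the mitochondrial arginine enzyme, had 29.5, 26.2 and 27.5 CPM in the inhibitor libraries, against 22.1, 23.5 and 20.6 CPM in the DMSO libraries, with no overlap and a log2 fold change of 0.33 (edgeR adjusted p = 0.190). RARS and RARS2 were thus the 2 of the 38 tested members that were higher in every inhibitor library, where 13.7% of all genes were. Neither was called, and a link between them was not tested. TARS2, the mitochondrial threonine enzyme, had 12.3, 12.2 and 12.4 CPM in the inhibitor libraries, against 22.5, 17.6 and 11.1 CPM in the DMSO libraries. DMSO 3 lay below the inhibitor libraries and the other DMSO libraries above them. Its log2 fold change was -0.49 (edgeR adjusted p = 0.218) with all libraries, -0.72 (adjusted p = 0.000659) without DMSO 3 and -0.25 (adjusted p = 0.526) without DMSO 1.

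The other mitochondrial enzymes did not separate the groups. The highest fold changes were those of LARS2 (0.27), MARS2 (0.26), HARS2 (0.18) and VARS2 (0.07), and the lowest those of AARS2 (-0.26), SARS2 (-0.18), WARS2 (-0.13) and NARS2 (-0.08). YARS2, FARS2, CARS2, EARS2 and IARS2 lay between -0.05 and -0.03 on the log2 scale. Without DMSO 3, the log2 fold change was 0.31 for HARS2, 0.16 for LARS2, -0.022 for VARS2, -0.40 for AARS2, -0.33 for SARS2 and -0.038 for NARS2. It was then 0.072 for YARS2, 0.12 for FARS2, -0.16 for CARS2, -0.079 for EARS2 and -0.055 for IARS2, and none of these 11 genes was called. IARS2, for isoleucine, had 255, 241 and 251 CPM in the inhibitor libraries, against 259.7, 252 and 249 CPM in the DMSO libraries, with a 95% interval on the log2 scale of -0.26 to 0.21. DMSO 3 was the lowest DMSO library for 9 of the 15 and the highest for 3. PARS2, the mitochondrial proline enzyme, was too low to test, with 4, 4 and 1 counts in the inhibitor libraries and 9, 8 and 0 in the DMSO libraries. The ratio of its summed counts scaled by library size, inhibitor over DMSO, was 0.557 (exact 95% interval 0.219 to 1.32, counting error only).

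For 16 pairs of a cytosolic and a mitochondrial gene for the same amino acid, the ratio within each library was compared. Each ratio also depends on how well both PCR products amplify, so each ratio is set only against the same ratio in the other group. The ratio was lower in inhibitor cells for 12 pairs and higher for 4, with a median change of -0.20 on the log2 scale. Both pairs of the phenylalanine enzyme use FARS2 and are not independent. Groups did not overlap for 3 pairs, each with an exact two-sided permutation p of 0.1, the smallest that 3 libraries against 3 allow, and the smallest adjusted p over the 16 was 0.533. No pair can therefore pass the threshold in this design. The number of pairs without overlap was 5 without inhibitor 2 or DMSO 1, 7 without DMSO 2 and 6 without DMSO 3, where fewer libraries make a separation easier. The 3 were MARS over MARS2, with a log2 ratio of 6.07 ± 0.141 in inhibitor cells and 6.65 ± 0.295 in DMSO cells, CARS over CARS2, with -2.47 ± 0.145 in inhibitor cells and -1.93 ± 0.252 in DMSO cells, and HARS over HARS2, with 0.874 ± 0.161 in inhibitor cells and 1.19 ± 0.056 in DMSO cells (SD, n = 3 each). In the GENCODE v29 annotation, exons of HARS and HARS2 overlap on opposite strands. Whether counting used strand is not given, and the part of reads shared by HARS and HARS2 was not tested. The highest change was 0.17, for TARS over TARS2, where DMSO 3 lay above the inhibitor libraries and the other DMSO libraries below them.

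**Figure D3:**
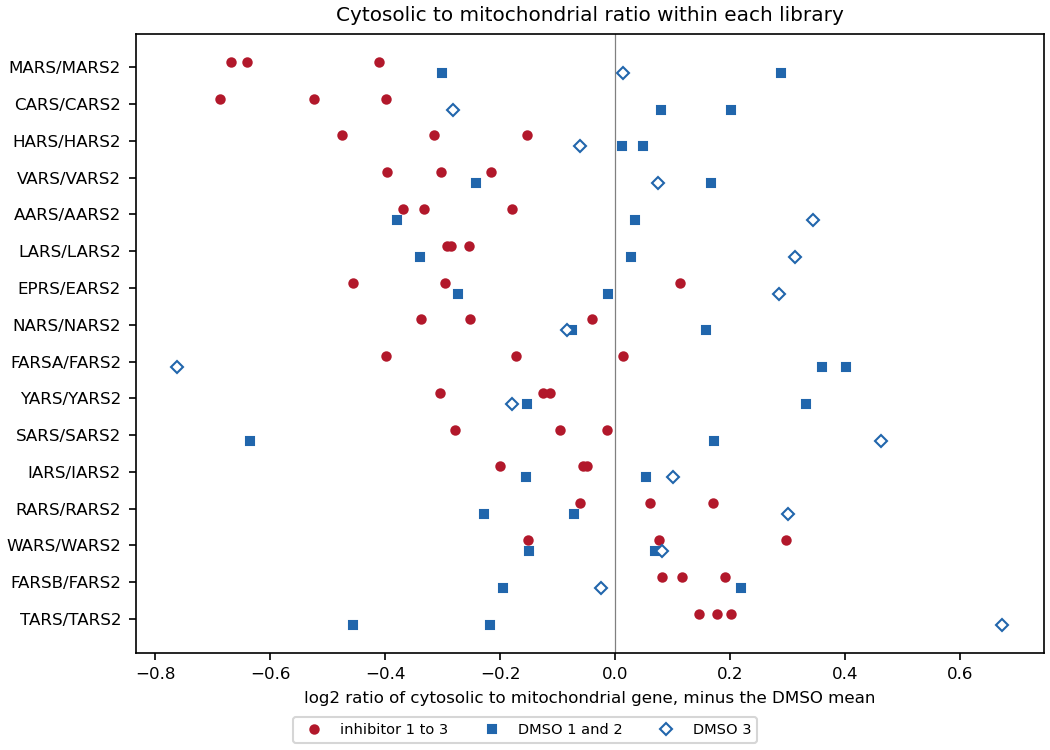
Log2 ratio of the cytosolic to the mitochondrial gene for each amino acid in each library, minus the mean of the 3 DMSO libraries. Filled circles are inhibitor libraries, filled squares DMSO 1 and 2, open diamonds DMSO 3. The inhibitor points lie left of all DMSO points for MARS, CARS and HARS over their mitochondrial partners.

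Several cytosolic members carry the letters of a C/EBP-ATF response element close to their start. RefSeq promoter windows on GRCh38.p14, from 250 bases before to 50 after each start, were available for 33 of the 39 members, 16 of them cytosolic, 14 mitochondrial and 3 scaffold; windows for AARS2, DARS, LARS, VARS, VARS2 and YARS were not used here. The letters TGATGNAAN on either strand occurred in 7 of the 16 cytosolic genes, in 1 of the 14 mitochondrial genes (YARS2) and in 0 of the 3 scaffold genes, and in 3.61% of all 35116 RefSeq windows, or 4.45% of their 27305 genes. HARS and HARS2 start close together on opposite strands, so their windows share bases. A match is a string of letters, not a measured binding site. The matching stretches are shown because 6 of the 7 cytosolic genes that hold them had an unadjusted p under 0.05; each is read on the gene's strand, with the motif in capitals and 10 bases on either side:
AARS: ttttctcgcaGTTGCATCAgccaagttag
CARS: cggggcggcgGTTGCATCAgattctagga
GARS: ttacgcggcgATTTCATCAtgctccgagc
IARS: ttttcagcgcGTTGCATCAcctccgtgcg
MARS: gccggttccgGTTGCATCAgcgagggatt
NARS: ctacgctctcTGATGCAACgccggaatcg
TARS: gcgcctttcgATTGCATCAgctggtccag
YARS2: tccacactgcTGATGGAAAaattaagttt

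These stretches lie at chr16:70289676-70289704 (minus strand) for AARS, chr11:3057408-3057436 (minus) for CARS, chr7:30594834-30594862 (plus) for GARS, chr9:92293693-92293721 (minus) for IARS, chr12:57488053-57488081 (plus) for MARS, chr18:57621804-57621832 (minus) for NARS, chr5:33440956-33440984 (plus) for TARS and chr12:32756076-32756104 (minus) for YARS2. In CARS, GARS, IARS, MARS, NARS and TARS the motif was within 34 bases of the start of the window that held it. In NARS and TARS it lay after that start, and in AARS it began 188 bases before it. CARS, GARS and TARS each have another window, with another start, that does not hold the motif. AARS, CARS, IARS and MARS share the letters GTTGCATCA, and NARS has the same letters on the opposite strand, read as TGATGCAAC. The whole 250 bases before the AARS start, chr16:70289507-70289756 on the minus strand, place its motif in context:
AARS upstream: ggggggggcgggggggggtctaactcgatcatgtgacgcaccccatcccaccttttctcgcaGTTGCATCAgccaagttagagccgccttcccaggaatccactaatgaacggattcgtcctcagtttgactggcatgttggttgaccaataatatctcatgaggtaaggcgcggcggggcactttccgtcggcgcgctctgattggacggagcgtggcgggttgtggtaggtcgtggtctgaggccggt

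The 7 cytosolic genes with the motif had a median log2 fold change of -0.32, with a range of -0.62 for CARS to -0.13 for IARS. All 7 were below 0. Unadjusted p was under 0.05 for 6 of them, where 9.23% of all genes were lower at that p, and 5 were lower without overlap, where 11.8% of all genes were. The 9 cytosolic genes with a window and no motif had a median of -0.12, with an unadjusted p under 0.05 in 1, RARS, which was higher. The groups did not overlap for RARS and for EPRS, which was lower. Without DMSO 3 the medians were -0.29 with the motif and -0.0369 without it. edgeR then called AARS, CARS, GARS and NARS lower among the 7, and FARSA lower and RARS higher among the 9, when 11.1% of all genes were called lower and 10.8% higher. With the GC trend removed the median of the 7 was -0.30. The median transcript GC content was 53.9% with the motif and 49.95% without. YARS2, the mitochondrial gene with the motif, had a log2 fold change of -0.05. No test was made between these sets, since they are small and ATF4-related changes were known before the motif was searched.

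An interferon-stimulated response element core, read as GAAA, any 2 bases and GAAA again, on either strand, occurred in the windows of WARS and EARS2 and in 3.57% of all windows. No member window held both motifs. WARS has another window, which holds neither motif. The core is shown for WARS because of that gene's known response to interferon, at chr14:100375383-100375412 on the minus strand, beginning 55 bases before the start of the window that holds it:
WARS: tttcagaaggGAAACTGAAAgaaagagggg

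Around the synthetases, a list of amino acid sensing and ATF4 pathway genes held many called genes. The list held 31 tested genes, and their changes in these data were also known beforehand. Of these, edgeR called 17 lower and 1 higher in inhibitor cells, where 1.92% of all genes were lower and 1.95% higher. The median log2 fold change of the list was -0.68. ATF4 had 582, 433 and 461 CPM in the inhibitor libraries, against 859, 815 and 869.9 CPM in the DMSO libraries, with no overlap. It fell by 0.78 on the log2 scale, with an SE of 0.126 (edgeR adjusted p = 0.00347). The falls of greatest size in the list were those of DDIT3 (-2.89, from 3, 5 and 1 counts in the inhibitor libraries and 20, 31 and 21 in the DMSO libraries), a transcription factor of the stress response, CHAC1 (-2.70), an enzyme that degrades glutathione, and ATF3 (-2.29), a stress-induced transcription factor. ASNS, asparagine synthetase, had -0.60 (edgeR adjusted p = 0.0741), and -0.36 without DMSO 3 (adjusted p = 0.0203). GCN2 itself, EIF2AK4, had -0.05 (edgeR adjusted p = 0.861), and -0.14 without DMSO 3. The gene called higher was EIF2AK2, the interferon-inducible kinase PKR, at 0.63 (edgeR adjusted p = 0.0223). ATF5, another transcription factor of the list, was also higher in every inhibitor library, at 0.55. It was not called by edgeR (adjusted p = 0.0610) but was by DESeq2 (adjusted p = 0.0312). Without DMSO 3, ATF5 had 0.41 (edgeR adjusted p = 0.0125). The list had 10 called genes without inhibitor 2, all lower, when 0.870% of all genes were called. Without DMSO 3 it had 23, of which 21 were lower and 2 higher, when 21.9% of all genes were called. The 95% interval lay within 2-fold for 37 of the 38 synthetase and scaffold genes and for 15 of these 31. As the 31 were listed with their changes known, these counts cannot be compared. The share over all genes is not given here, and no test was made.

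**Figure D4:**
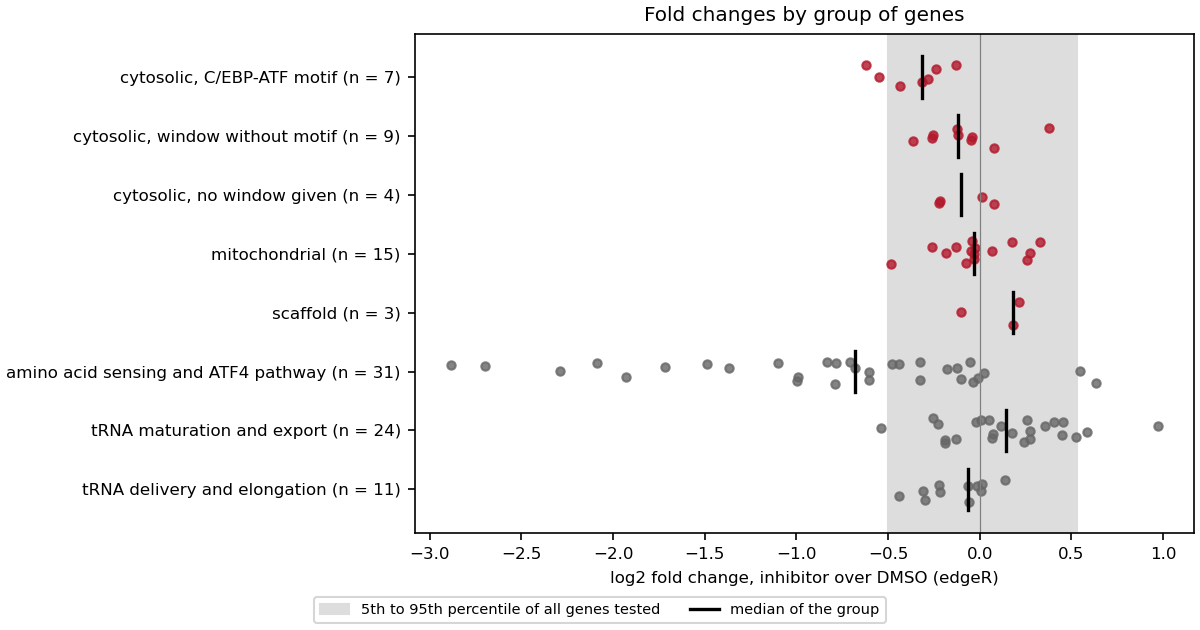
Log2 fold changes, inhibitor over DMSO, by group of genes, from edgeR. Each point is a gene, the black bar is the group's median and the grey band spans the 5th to 95th percentile of all tested genes. Cytosolic enzymes with the C/EBP-ATF motif centre at -0.32, and the amino acid sensing and ATF4 genes at -0.68 with the widest range of the groups drawn.

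Few genes that act before or after charging were called. Of 24 tested genes of tRNA maturation and export, edgeR called 1, RPP14, a subunit of ribonuclease P, with 17.2, 19.3 and 15.1 CPM in the inhibitor libraries, against 7.90, 10.3 and 7.99 CPM in the DMSO libraries. It was higher in every inhibitor library, at 0.97 in log2 fold change with an SE of 0.170 (edgeR adjusted p = 0.00590), and the median of the list was 0.15. That 1 call in 24 stands beside 3.87% of all genes. At an unadjusted p under 0.05 were 9 of the 24, where 19.5% of all genes were, and the groups did not overlap for 11, where 25.5% did not. Without inhibitor 2 the list had 0 called genes, and without DMSO 1 it had 2. XPOT, the tRNA exporter, had -0.25 (edgeR adjusted p = 0.241). Among 11 tested factors of tRNA delivery and elongation, edgeR called 0, with 2 at an unadjusted p under 0.05 and a median of -0.0623. Of 6 tested genes of mitochondrial transamidation, formylation and peptidyl-tRNA hydrolysis it called 0, with 1 at an unadjusted p under 0.05, and of 4 editing, selenocysteine and synthetase-like genes 0, with 0 at an unadjusted p under 0.05. DESeq2 and limma-voom also called 0 in these 3 lists. Without DMSO 3, edgeR called 5 of the 11 elongation factors lower, 2 of the 6 mitochondrial genes higher, 1 of the 4 editing genes lower, and 5 maturation genes higher and 1 lower, when 10.8% of all genes were called higher and 11.1% lower.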

How the data were processed

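RNA of 6 HT-1080 samples was amplified with the Ion AmpliSeq Transcriptome panel and read on an Ion Torrent instrument, per the series' design text and the labels. Each deposited file gives a whole-number count per gene symbol, which the authors left unnormalized. HTSeq, DESeq2 1.20.0 and hg19 are named in the submitters' processing notes, with no role for each. For the aligner, no name is given in the sources used here. No molecular identifiers are named, so intervals from counts cover counting error only.

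Summed counts came to 11909708, 11024363 and 9469603 in inhibitor 1, 2 and 3 and to 13180029, 13184553 and 9162281 in DMSO 1, 2 and 3. Replicate pairs differed beyond counting noise. Chi-square per degree of freedom was 5.17 to 6.62 between inhibitor libraries and 9.88 between DMSO 1 and 2. It was 36.7 between DMSO 1 and 3 and 24.6 between DMSO 2 and 3. Groups and replicate numbers came from the labels. Of 20683 genes, 11216 passed filterByExpr (minimum count 10, minimum total 15). Libraries were TMM-scaled, and edgeR 4.0.16 (R 4.3.3) ran the quasi-likelihood test on group, with Benjamini-Hochberg adjustment over all tested genes and a threshold of 0.05. The SE was derived from the test statistic. Log2 CPM used a prior count of 2. Ratios of paired genes were compared by exact permutation of libraries.

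Alternatives were size factors of DESeq2, library totals, no filter, a mean count of at least 50, a prior count of 0.5 for the ratios, DESeq2 1.42.0, limma-voom (limma 3.58.1) with and without quality weights, removal of each library's GC trend (span 0.5), a replicate block and leaving out each library. Fits were tested on simulated counts with known fold changes, drawn with the same spread in both groups and no GC trend. That simulation cannot show how the fits behave with the wider spread and the GC trend of the DMSO libraries. Promoter windows came from RefSeq (GRCh38.p14) and exon overlaps and transcript GC content from GENCODE v29, by symbol. The files' build differs, so no count was placed by coordinates. The members, the related lists, the motifs and these alternatives were chosen with earlier results of these data known. Every member is named. Values in every library were planned for called members, GARS, KARS, WARS, WARS2 and the scaffold genes. Those of other members were chosen after their values were seen, as were ASNS, ATF5, EIF2AK4, EIF2AK2, IRF1, GBP1 and XPOT.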

Additional observations from a re-analysis of the deposited data

How the results depend on the processing

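The 38 members gave 570 values under other settings. Of these, 518 kept their direction and their side of the threshold, 24 kept their direction and were then called, and 28, none of them called, changed direction, in 13 members. In 18 members the fold change was below 0 throughout, and in 7 above 0. The cause of the differences was not tested.

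The number of members called, 0 in the main test, was 3 with no filter on low counts, 2 with DESeq2, 8 with quality weights and 1 with the GC trend removed; of cytosolic enzymes 3, 2, 7 and 1 were called, and of mitochondrial ones 1 with quality weights. Quality weights also called 3 genes of tRNA delivery and elongation, 1 of mitochondrial transamidation, 7 of tRNA maturation and 8 interferon genes. For tRNA maturation the count was 2 with library totals, 3 with no filter and 3 with the GC trend removed. Leaving out 1 library gave 0 to 8 members, 0 to 7 cytosolic and 0 to 1 mitochondrial enzymes, 0 to 5 delivery, 0 to 2 transamidation, 0 to 1 editing, 0 to 6 maturation, 10 to 23 ATF4 pathway and 4 to 8 interferon genes, and 3 to 7 pairs without overlap.

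Fold changes on the other side of 0 were LARS -0.028 with the GC trend removed; QARS 0.013, WARS 0.021, CARS2 0.027, EARS2 0.030, FARS2 0.018, IARS2 0.033 and YARS2 0.011 with library totals; and SARS 0.089, WARS 0.019, FARS2 0.21 and EEF1E1 0.011 with quality weights. With 1 library left out the range was -0.018 to 0.13 for DARS, -0.026 to 0.24 for FARSB, -0.037 to 0.064 for LARS, -0.15 to 0.072 for WARS, -0.16 to 0.062 for CARS2, -0.14 to 0.12 for EARS2, -0.21 to 0.12 for FARS2, -0.022 to 0.22 for VARS2, -0.19 to 0.072 for YARS2 and -0.21 to 0.058 for EEF1E1. The ratio change ranged from -0.057 to 0.21 for RARS over RARS2, -0.45 to 0.10 for SARS over SARS2, -0.053 to 0.51 for TARS over TARS2, -0.038 to 0.19 for WARS over WARS2 and -0.57 to 0.015 for FARSA over FARS2.

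Same-numbered libraries had correlations of -0.0821, -0.0423 and -0.122 in their deviations from the group means over 9034 genes. Whether same-numbered dishes were handled together was not tested. With a replicate block, 1 member was called, the cytosolic gene AARS, when 2.92% of all genes were called. Depth limits PARS2, with at most 9 counts in a library.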
